A study of Mus musculus with 51 samples.

Results

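The genes described here are 37 genes of the endothelium and of blood vessel growth, chosen by name as a list. All 37 were found among the probe sets that carry exactly 1 gene symbol, out of 18194 genes measured, through 67 probe sets (18 genes were read by 1 and 19 by several). They fall by role into 5 receptor tyrosine kinases, 6 growth factor ligands, 13 junction and surface proteins, 5 other receptors and secreted regulators, 5 transcription factors and 3 lymphatic and scavenger receptors. The tissue came from wild-type FVB mice with no transgene or treatment, and RNA of 1 embryo was put on each of 51 whole-genome Affymetrix arrays. Forelimbs were taken at E9.5 (embryonic day; 3 arrays), E10.5 (5), E11.5 (4), E12.5 (5) and E13.5 (5), hindlimbs at E10.5 (4), E11.5 (5), E12.5 (5) and E13.5 (5). Whole embryos, the reference, were taken at each stage from E9.5 to E13.5 (2 arrays each). Limbs were cut off whole, so every value is a mixture of all limb tissues, and in such bulk RNA fewer endothelial cells and less RNA per endothelial cell cannot be told apart. The limb replicates of a stage came from 1 litter, so stage and litter cannot be told apart either, and the p-values measure the spread between embryos of 1 litter.

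Blood vessels form when endothelial precursors assemble into a plexus, which then sprouts and is remodelled into arteries, veins and capillaries. Vegfa drives sprouting through the receptors Kdr and Flt1, Vegfc and Vegfd act on lymphatic endothelium through Flt4, and the angiopoietins act on Tek, with Tie1 as its partner receptor. The limb bud carries a capillary plexus from its start, and lymphatic vessels, marked by Prox1 and Lyve1, enter the embryo's tissues later than blood vessels do.

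Promoter sequence, from 250 bases before to 50 bases after the start of the gene, was held for 19 of the 37 genes (RefSeq, mouse build GRCm38.p6). No entry was held for Sox18, Ramp2, Esam, Plvap, Fli1, Lyve1, Ecscr, Angpt2, Icam2, Cdh5, Sox7, Nos3, S1pr1, Angpt1, Sox17, Pecam1, Aplnr and Mmrn2. Of the 4 promoters printed, those of Vegfd, Stab1 and Emcn belong to genes called between E10.5 and E13.5 in a limb, and that of Tie1 is shown for a receptor kinase that was not: Vegfd at chrX:164373272-164373571 (+ strand), Stab1 at chr14:31168592-31168891 (- strand), Emcn at chr3:137340828-137341127 (+ strand) and Tie1 at chr4:118489800-118490099 (- strand). They are written 5′ to 3′ along the gene, and capitals mark AGGAAG or its reverse complement CTTCCT, a form of the site that ETS transcription factors such as Fli1 recognise.
Vegfd: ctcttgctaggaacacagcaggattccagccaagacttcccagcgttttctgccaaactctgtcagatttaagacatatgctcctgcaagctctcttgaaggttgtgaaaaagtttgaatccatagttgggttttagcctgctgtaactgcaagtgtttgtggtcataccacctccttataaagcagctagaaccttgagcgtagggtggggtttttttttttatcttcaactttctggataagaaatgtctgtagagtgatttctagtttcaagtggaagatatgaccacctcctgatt
Stab1: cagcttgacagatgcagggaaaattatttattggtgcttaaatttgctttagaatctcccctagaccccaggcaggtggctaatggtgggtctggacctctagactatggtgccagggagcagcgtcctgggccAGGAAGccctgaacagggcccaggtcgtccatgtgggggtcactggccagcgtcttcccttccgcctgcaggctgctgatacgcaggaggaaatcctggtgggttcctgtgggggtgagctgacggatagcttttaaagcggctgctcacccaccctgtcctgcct
Emcn: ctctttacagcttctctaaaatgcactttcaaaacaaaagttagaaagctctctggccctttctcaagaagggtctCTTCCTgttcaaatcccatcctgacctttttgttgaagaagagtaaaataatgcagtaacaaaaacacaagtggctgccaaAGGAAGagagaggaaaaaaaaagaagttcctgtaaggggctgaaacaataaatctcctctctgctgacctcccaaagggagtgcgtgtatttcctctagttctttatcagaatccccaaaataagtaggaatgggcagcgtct
Tie1: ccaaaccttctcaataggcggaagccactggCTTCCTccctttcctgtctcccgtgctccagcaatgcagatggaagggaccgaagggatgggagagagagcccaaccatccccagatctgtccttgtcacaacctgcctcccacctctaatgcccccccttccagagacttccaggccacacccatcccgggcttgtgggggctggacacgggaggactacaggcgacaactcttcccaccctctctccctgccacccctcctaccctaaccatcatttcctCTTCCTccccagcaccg
Emcn and Tie1 each held AGGAAG 2 times, Stab1 held it 1 time, and Vegfd did not hold it. Over all 19 promoters AGGAAG was present in 10 (52.6%), those of Tie1, Flt1, Emcn, Eng, Robo4, Egfl7, Apln, Myct1, Stab1 and Stab2, against 38.4% of the promoters of 27025 genes. CCGGAA, another ETS form, which can overlap the first, was present in 1, that of Kdr (5.26% against 16.7%). ACAATG, a form of the SOX site, was in 0 of 19 against 14.3%, and ACGTG, the core of the site of hypoxia-inducible factors, was in 3 (Clec14a, Vegfa and Myct1; 15.8% against 21.8%), with both strands searched each time. These are matches of letters only.

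All values are log2 of the deposited intensities, as the average of a gene's probe sets, and are compared between groups for 1 gene at a time. Differences were tested in limma with all 14 groups in 1 fit. A gene is called up-regulated or down-regulated at a fold change of 2 or more with an adjusted p under 0.001 (Benjamini-Hochberg over all genes of the comparison), and a looser limit, an adjusted p under 0.05 with no fold limit, is given beside it. The arrays fell into 2 sets. On 13 arrays, 10 of whole embryo and 3 of forelimb at E9.5, the spiked-in bacterial transcript Dap read 10.71 to 13.29 and the 3′ probe set of Gapdh exceeded its 5′ probe set by 1.48 to 2.85, whereas on the 38 later limb arrays Dap read 3.04 to 3.63 and the Gapdh difference was -0.10 to 0.16. Over the bacterial transcripts Dap, Thr, Phe and Lys these 38 arrays read 2.82 to 5.21. Lyve1 at E10.5 and E11.5, Prox1 in all but 3 of its later limb arrays, Stab2 in most later limb arrays and Vegfd in hindlimb from E11.5 on lay in or next to that range. The later limb group means of Angpt2, 4.62 to 4.88, lay in it too. The log2 differences of these genes are therefore given as measured, with no fold change against such a level. Comparisons among limbs from E10.5 on, and between forelimb and whole embryo at E9.5, lie within a set. Those of later limbs with whole embryo or with E9.5 forelimb cross the sets, so that array set and group cannot be told apart there. The titles placed 2 arrays, hindlimb E11.5 replicate 5 and forelimb E12.5 replicate 5, in other groups than their remaining labels did, and the titles were used. In both, the forelimb gene Tbx5 and the hindlimb genes Tbx4 and Pitx1 read on the side of the limb named in the title (Tbx5 5.75 and 9.77, Tbx4 10.05 and 6.77, Pitx1 10.65 and 5.52).

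Most of the 37 genes stayed within 1 log2 unit in the limb from E10.5 to E13.5. The same span was not taken over all genes, so it is not shown to be a trait of the list. The means of the 8 later limb groups spanned under 1 log2 unit for 30 of the genes and under 0.5 for 15, with a median span of 0.56 and the smallest, 0.25, for Mmrn2, a matrix protein of vessel walls. The 7 genes with a wider span were Lyve1 (3.22), Vegfd (2.09), Prox1 (1.75), Stab1 (1.48), Fli1 (1.26), Angpt1 (1.12) and Emcn (1.11). Between E10.5 and E13.5, 3 genes were up-regulated (5.43% of all genes were) and 2 down-regulated (5.13%) in forelimb, 10.6% of all genes being called in either direction, with a median difference of 0.12 against -0.03 over all genes. In hindlimb 2 were up-regulated (5.99% of all genes) and 2 down-regulated (5.16%), 11.1% in either direction, with a median of -0.04 against -0.08. With the probe set of highest mean alone, 6 genes were called in hindlimb, Cdh5 (1.08) and Vegfa (1.23) being added. At the looser limit 13 genes were higher and 7 lower in forelimb (24.1% and 34.1% of all genes, 58.3% together), and 11 were higher and 11 lower in hindlimb (22.6% and 34.3%, 56.9% together). With 5 and 4 of 37 genes called, the list was close to all genes.

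**Figure D1:**
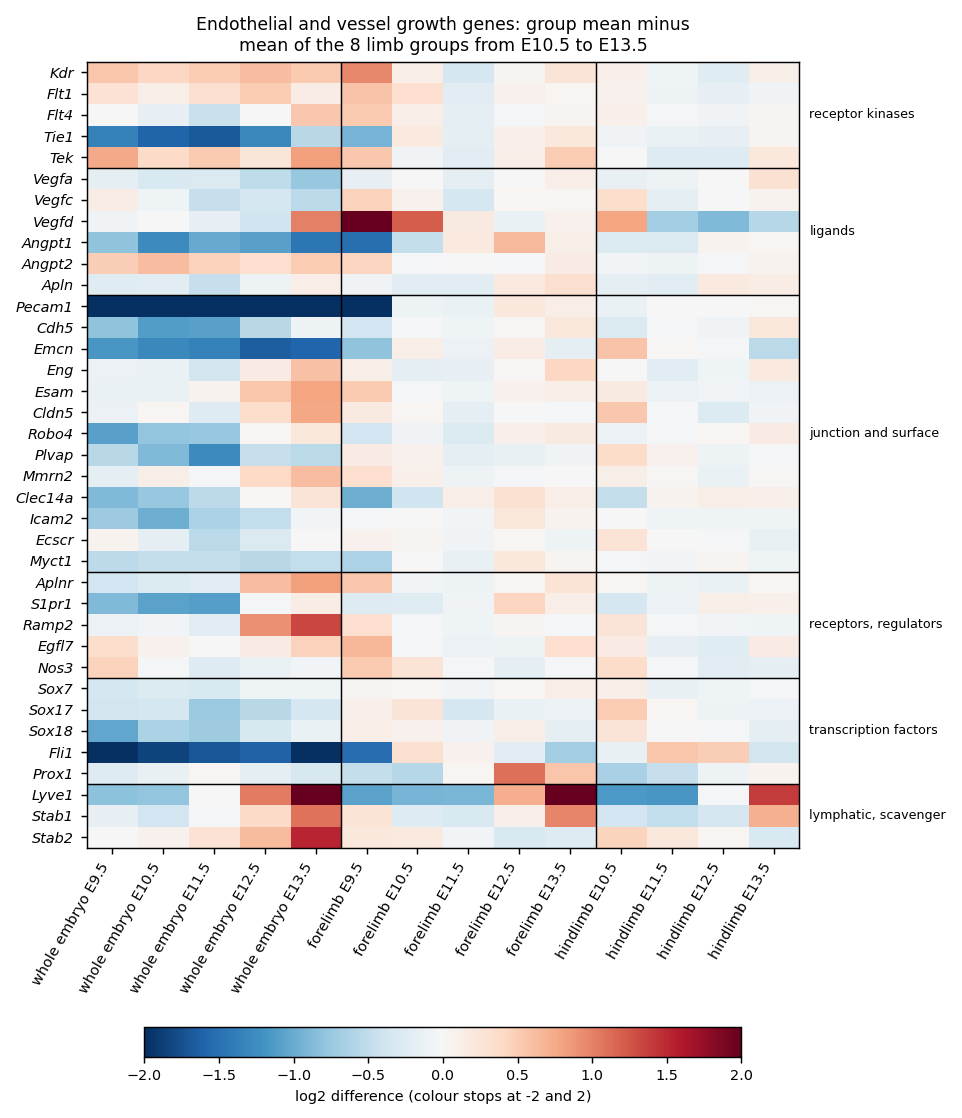
Each row is 1 of the 37 genes, grouped by role, and each column 1 of the 14 groups; colour gives the group mean minus the mean of the 8 limb groups from E10.5 to E13.5 (log2, colour stops at -2 and 2). The later limb columns are pale for most genes, with Vegfd, Lyve1, Stab1, Prox1 and Fli1 as the coloured rows, and Pecam1 and Fli1 are low (blue) in whole embryo and in E9.5 forelimb.

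Successive stages were then compared. From E10.5 to E11.5, over both limbs, 1 gene was down-regulated and 0 up-regulated (0.291% and 1.67% of all genes, 1.96% together), 11 were lower and 3 higher at the looser limit (17.6% and 18%, 35.6% together), and the median difference was -0.17 against -0.02 over all genes. From E11.5 to E12.5, 1 gene was up-regulated and 0 down-regulated (0.555% and 0.187% of all genes, 0.742% together), 10 were higher and 0 lower at the looser limit (10.1% and 12%, 22.1% together), and the median was 0.11. From E12.5 to E13.5, 1 gene was again up-regulated and 0 down-regulated (1.45% and 0.654%, 2.11% together), 10 were higher and 7 lower (19.1% and 33.3%, 52.4% together), and the median was 0.07. Quantile normalization of the arrays changed the split of the last step to 17 higher and 2 lower, with Sox18, Angpt1, Ecscr, Prox1 and Myct1 no longer past the looser limit.

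Among the ligands, Vegfd, a growth factor that acts through Flt4, changed most with stage. In forelimb it read 6.91, 6.45, 7.22, 7.04 and 6.25 at E10.5 and 5.79, 5.74, 5.51, 5.62 and 5.54 at E13.5, and in hindlimb 6.30, 6.45, 6.40 and 6.21 at E10.5 and 4.79, 4.95, 5.00, 5.38 and 4.82 at E13.5. The stages did not overlap in either limb, and the fall was 1.13 ± 0.14 (standard error) in forelimb, a fold change of 2.20 (limma, adjusted p = 1.4e-09), and 1.35 ± 0.15 in hindlimb (adjusted p = 7.32e-11). Nearly all of it lay between E10.5 and E11.5, where Vegfd was the gene called (-1.25 ± 0.10, adjusted p = 1.5e-13), and 0.26 was regained from E12.5 to E13.5 (adjusted p = 0.0212). All 3 of its probe sets fell in both limbs. Vegfc, its close relative, also fell in that first step (-0.49 ± 0.05, adjusted p = 1.02e-10), with every E11.5 array below every E10.5 array, and rose again by 0.28 at E12.5 (adjusted p = 1.92e-05). Between E10.5 and E13.5 it was lower in hindlimb (-0.28, adjusted p = 0.000762), which did not pass after quantile normalization. Its 3 probe sets did not share a direction over these stages, at -0.52, 0.22 and -0.54 in hindlimb and -0.25, 0.27 and -0.18 in forelimb.

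The other ligands moved little or upwards. Angpt1, the activating ligand of Tek, rose from E10.5 to E11.5 by 0.33 and to E12.5 by 0.41, and fell by 0.28 at E13.5 (adjusted p = 0.00407, 0.00063 and 0.00753, limma). In forelimb its means were 6.52 ± 0.34, 7.19 ± 0.22, 7.64 ± 0.11 and 7.12 ± 0.12 (SD, n = 5, 4, 5 and 5) from E10.5 to E13.5, and in hindlimb 6.70 ± 0.19, 6.70 ± 0.14, 7.07 ± 0.14 and 7.03 ± 0.08 (n = 4, 5, 5 and 5). Apln, the secreted ligand of the receptor Aplnr and a product of sprouting endothelium, was higher at E13.5 than at E10.5 by 0.53 in forelimb and 0.33 in hindlimb (adjusted p = 2.03e-06 and 0.00296), most of it in the step to E12.5, where all E12.5 arrays exceeded all E11.5 arrays (0.43 ± 0.07, adjusted p = 2.15e-06). Vegfa rose in hindlimb by 0.45 (adjusted p = 0.000165), but its 2 probe sets went opposite ways, at 0.58 and -0.34 in forelimb and 1.23 and -0.34 in hindlimb, so its direction depends on the probe set. Angpt2, which opposes Angpt1 at Tek, differed by 0.19 in forelimb (adjusted p = 0.0283), at group means in the range of the bacterial transcripts. That difference did not pass after quantile normalization.

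None of the 5 receptor tyrosine kinases was called in a comparison of limb stages from E10.5 on. Kdr, the main VEGF receptor of sprouting endothelium, dipped by 0.33 ± 0.07 from E10.5 to E11.5 (adjusted p = 0.000157) and regained 0.28 ± 0.07 from E12.5 to E13.5 (adjusted p = 0.000332), so that the difference between E10.5 and E13.5 was 0.13 in forelimb (95% interval -0.05 to 0.32) and 0.02 in hindlimb (-0.18 to 0.21). Flt1, the decoy receptor of Vegfa, fell by 0.37 ± 0.07 in the first step (adjusted p = 1.38e-05), with no overlap between the stages, and differed by -0.28 ± 0.09 between E10.5 and E13.5 in forelimb (adjusted p = 0.00499). Tek rose by 0.42 ± 0.08 from E12.5 to E13.5 (adjusted p = 2.79e-05), and in forelimb it read 7.31, 7.24, 7.30, 7.70 and 7.24 at E10.5 against 7.93, 8.07, 7.81, 7.88 and 7.99 at E13.5. These do not overlap, and the forelimb difference was 0.58 ± 0.12 (adjusted p = 3.18e-05). For Tie1 the differences between E10.5 and E13.5 were 0.01 (-0.32 to 0.33) in forelimb and 0.12 (-0.23 to 0.46) in hindlimb, and for Flt4 -0.10 (-0.37 to 0.18) and -0.04 (-0.33 to 0.25).

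Of the 13 junction and surface proteins, Emcn, a sialomucin of capillary and venous endothelium, was the 1 called among limb stages from E10.5 on. In hindlimb it read 9.52, 9.61, 9.80 and 9.44 at E10.5 and 8.63, 8.55, 8.35, 8.53 and 8.35 at E13.5. Every E13.5 array lay below every E10.5 array, with a fall of 1.11 ± 0.11 (adjusted p = 2.16e-11, limma), which was 0.94 after quantile normalization and then missed the fold limit. In forelimb the fall was 0.33 ± 0.11 (adjusted p = 0.00725), the arrays overlapped, it did not pass after quantile normalization, and the limbs differed in their change by 0.77 ± 0.16 (adjusted p = 0.000547). Cldn5, the tight junction protein of endothelium, behaved likewise: it fell by 0.62 ± 0.08 in hindlimb (adjusted p = 8.95e-09) and changed by -0.07 in forelimb (adjusted p = 0.471), a difference of 0.55 ± 0.11 between the limbs (adjusted p = 0.000499). The hindlimb arrays of Cldn5 at E10.5, 8.77, 8.87, 9.08 and 8.82, stood above every other later limb array.

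Other surface proteins rose within narrow limits. Clec14a, a lectin of sprouting endothelium, rose by 0.53 ± 0.05 from E10.5 to E11.5 (adjusted p = 3.93e-11) with no overlap, and its group means then lay between 6.80 and 7.03. Eng, a co-receptor for TGF-beta family ligands, rose by 0.60 ± 0.08 in forelimb and 0.21 ± 0.08 in hindlimb (adjusted p = 6.62e-09 and 0.0253), and the limbs differed by 0.38 ± 0.11 (adjusted p = 0.0172). Pecam1, the adhesion molecule used most often to stain vessels, had group means between 8.41 and 8.75 over the 8 later limb groups and differed between E10.5 and E13.5 by 0.24 ± 0.09 in forelimb (adjusted p = 0.0256) and 0.16 ± 0.10 in hindlimb (adjusted p = 0.176). Cdh5, the cadherin of endothelial junctions, rose by 0.51 ± 0.13 in hindlimb (adjusted p = 0.000599) and was 0.25 ± 0.12 higher in forelimb (adjusted p = 0.0741), but 1 of its 2 probe sets went the other way in both limbs. Robo4, a guidance receptor of endothelium, was higher by 0.25 and 0.29 (adjusted p = 0.0211 and 0.0142). In hindlimb Ecscr, Plvap and Esam were lower by 0.43, 0.41 and 0.28 (adjusted p = 6.16e-06, 0.0465 and 0.0139), and the last 2 did not pass after quantile normalization. Icam2, Mmrn2 and Myct1 passed no limit between E10.5 and E13.5 in either limb.

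**Figure D2:**
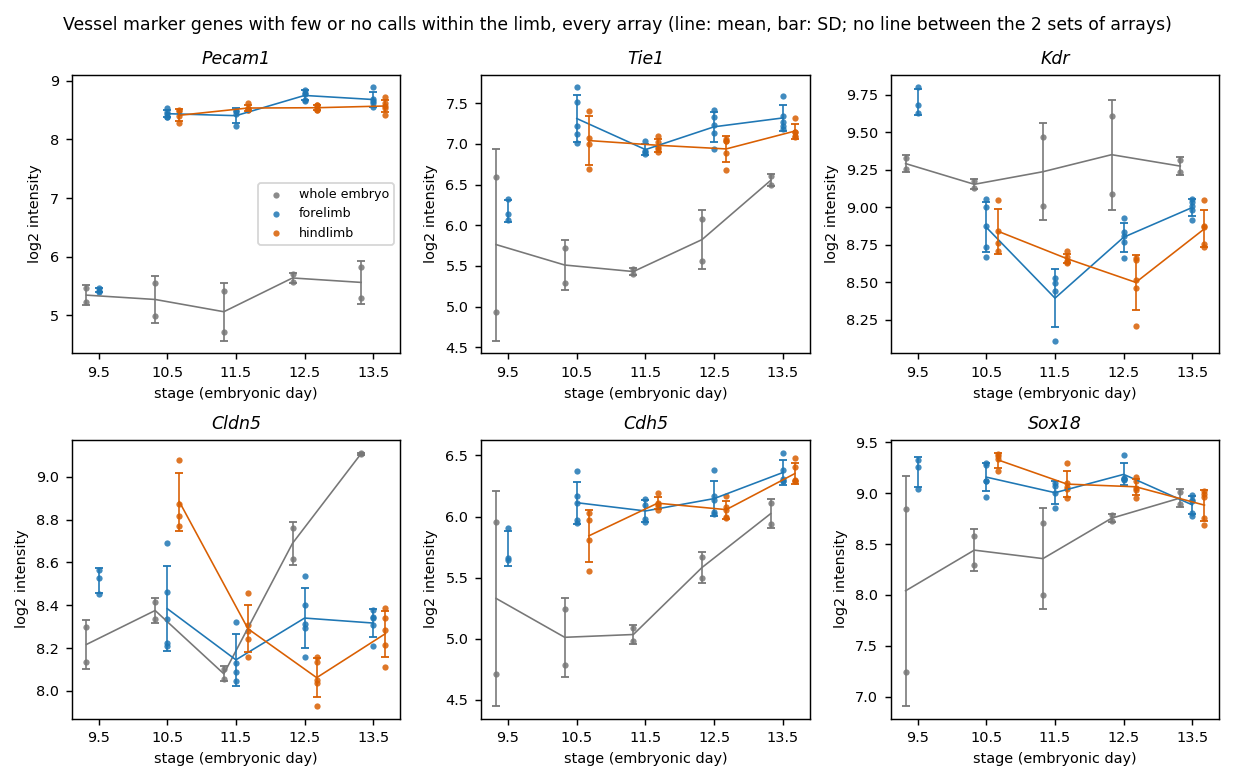
Every array is a point (log2 intensity against stage) for 6 vessel genes in whole embryo (grey), forelimb (blue) and hindlimb (orange), with group means joined and SD bars, and no line between the 2 sets of arrays. Pecam1 lies between 8.41 and 8.75 in the later limb groups and between 4.72 and 5.83 on all other arrays, whereas Cldn5 is high in E10.5 hindlimb alone among the limb groups.

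The 5 other receptors and secreted regulators were not called between limb stages from E10.5 on. Egfl7, a secreted regulator of vessel tubes, stood at 7.23 to 7.63 in the groups from E10.5 to E12.5 and rose by 0.42 ± 0.06 at E13.5 (adjusted p = 3.33e-08), with every E13.5 array above every E12.5 array. S1pr1, the receptor for sphingosine-1-phosphate that stabilises new vessels, was higher at E13.5 than E10.5 by 0.38 in forelimb and 0.43 in hindlimb (adjusted p = 0.0125 and 0.00756). Nos3, the endothelial nitric oxide synthase, was lower by 0.31 and 0.56 (adjusted p = 0.00883 and 2.42e-05), with -0.34 ± 0.08 in the step from E10.5 to E11.5 (adjusted p = 0.000419). Ramp2 and Aplnr, the co-receptor for adrenomedullin and the receptor for Apln, passed no limit between E10.5 and E13.5 in either limb.

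Among the transcription factors, Prox1, which sets lymphatic endothelial identity, rose and Fli1, an ETS factor of endothelium and blood cells, fell. Prox1 read 3.44, 3.48, 3.33, 3.79 and 3.34 in E10.5 forelimb, 4.81, 5.23, 5.13, 5.32 and 5.22 at E12.5 and 4.69, 4.56, 4.70, 4.44 and 4.57 at E13.5. Its values lie near the dim end of the array, whose lowest log2 value was 2.29 and median 5.31, and in the range of the bacterial transcripts except on 3 E12.5 forelimb arrays. In forelimb the stages did not overlap, and E13.5 exceeded E10.5 by 1.12 ± 0.12 (adjusted p = 2.84e-11), while hindlimb rose by 0.71 ± 0.12 (adjusted p = 3.6e-06) and the difference between the limbs did not pass (0.41 ± 0.17, adjusted p = 0.107). All 3 probe sets of Prox1 rose in both limbs.

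Fli1 read 9.21, 9.35, 8.95, 9.25 and 9.39 in E10.5 forelimb and 8.22, 8.07, 8.21, 8.34 and 8.21 at E13.5, a fall of 1.02 ± 0.14 with no overlap (adjusted p = 4.38e-08). The fall was 0.82 after quantile normalization and 0.98 to 0.99 without forelimb E10.5 replicate 2 or 5 or forelimb E13.5 replicate 2, under the fold limit each time. In hindlimb Fli1 had means of 8.76 ± 0.42, 9.47 ± 0.17, 9.40 ± 0.06 and 8.54 ± 0.23 (SD, n = 4, 5, 5 and 5), the change was -0.22 ± 0.15 (adjusted p = 0.217), and the limbs differed by -0.80 ± 0.21 (adjusted p = 0.00728). Its 2 probe sets both fell in forelimb (-1.41 and -0.64) and went apart in hindlimb (-0.80 and 0.36). Of the SOX factors that specify arterial and early endothelium, Sox17 fell by 0.37 in forelimb and 0.62 in hindlimb (adjusted p = 0.00144 and 2.11e-06), Sox18 by 0.44 in hindlimb (adjusted p = 0.0104), and Sox7 passed no limit between E10.5 and E13.5. The Sox17 probe sets had opposite signs in forelimb.

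Genes of limb mesenchyme fell beside Fli1. Of 6 such genes 3 were called down and 0 up between E10.5 and E13.5 in forelimb (median -1.12), and 1 and 0 in hindlimb (median -0.16). Their mean log2 lay between 9.90 and 10.07 on the E10.5 forelimb arrays and between 8.80 and 8.95 at E13.5, and in hindlimb between 9.51 and 9.82 and between 9.20 and 9.51. Their part in the fall of Fli1 was not tested.

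Lyve1 and Stab1 rose most of all. Lyve1, the hyaluronan receptor of lymphatic endothelium and of some macrophages, read 4.23, 4.05, 4.00, 4.94 and 4.15 in E10.5 forelimb, 6.72, 5.68, 5.16, 6.01 and 6.06 at E12.5 and 7.21, 7.51, 7.09, 7.21 and 7.22 at E13.5. In hindlimb it read 3.82, 4.11, 4.11 and 4.15 at E10.5, 4.40, 5.46, 5.34, 5.37 and 5.27 at E12.5 and 6.37, 6.46, 6.96, 6.88 and 6.32 at E13.5. No E13.5 array overlapped E10.5 in either limb, and the rise was 2.98 ± 0.19 in forelimb (adjusted p = 9.74e-18, limma) and 2.55 ± 0.20 in hindlimb (adjusted p = 9.48e-15), from E10.5 levels in the range of the bacterial transcripts. It came in similar steps, 1.39 ± 0.14 from E11.5 to E12.5 and 1.38 ± 0.13 from E12.5 to E13.5 (adjusted p = 1.41e-10 and 7.88e-12), and Lyve1 was the gene called up in both. The 2 probe sets rose by 4.01 and 1.94 in forelimb and by 3.72 and 1.38 in hindlimb.

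Stab1, a scavenger receptor of sinusoidal endothelium and macrophages, rose later. In forelimb it read 6.64, 6.36, 6.74, 6.96 and 6.38 at E10.5 and 7.85, 7.71, 7.75, 7.77 and 8.19 at E13.5, and in hindlimb 6.48, 6.43, 6.70 and 6.29 against 7.56, 7.56, 7.44, 7.77 and 7.54. The stages did not overlap, with rises of 1.24 ± 0.12 and 1.10 ± 0.13 (adjusted p = 3.76e-12 and 4.72e-10), of which 0.96 ± 0.09 came between E12.5 and E13.5. Stab2, its relative in sinusoidal endothelium, went the other way, by -0.46 ± 0.14 in forelimb and -0.76 ± 0.15 in hindlimb (adjusted p = 0.00565 and 3.96e-05). Its later limb group means, 4.35 to 5.11, all lay in the range of the bacterial transcripts.

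Macrophage genes rose beside Lyve1 and Stab1. Of 12 such genes 9 were called up and 0 down between E10.5 and E13.5 in forelimb and 8 and 0 in hindlimb (median differences 1.43 and 1.25). Mrc1, the mannose receptor, rose by 2.76 ± 0.15 and 2.99 ± 0.16. The mean log2 of the 12 lay between 5.38 and 5.81 on the E10.5 forelimb arrays, 6.36 and 6.59 at E11.5, 6.53 and 6.83 at E12.5 and 6.95 and 7.28 at E13.5, and in hindlimb between 5.34 and 5.52, 6.10 and 6.31, 6.12 and 6.47, and 6.65 and 6.92. Between E10.5 and E11.5 all 12 macrophage genes were higher at the looser limit (median 0.72). The group means of Lyve1 went from 4.27 to 4.28 in forelimb and from 4.05 to 4.03 in hindlimb. These Lyve1 levels lay in the range of the bacterial transcripts, where a small change cannot be read. The part of macrophages in the rise of Lyve1 and Stab1 was not tested. Genes of mural cells, the contractile cells around vessels, also rose (7 of 10 up-regulated in forelimb and 5 of 10 in hindlimb, 0 down-regulated), and genes of red blood cells fell (8 of 9 and 7 of 9 down-regulated, 0 up-regulated).

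**Figure D3:**
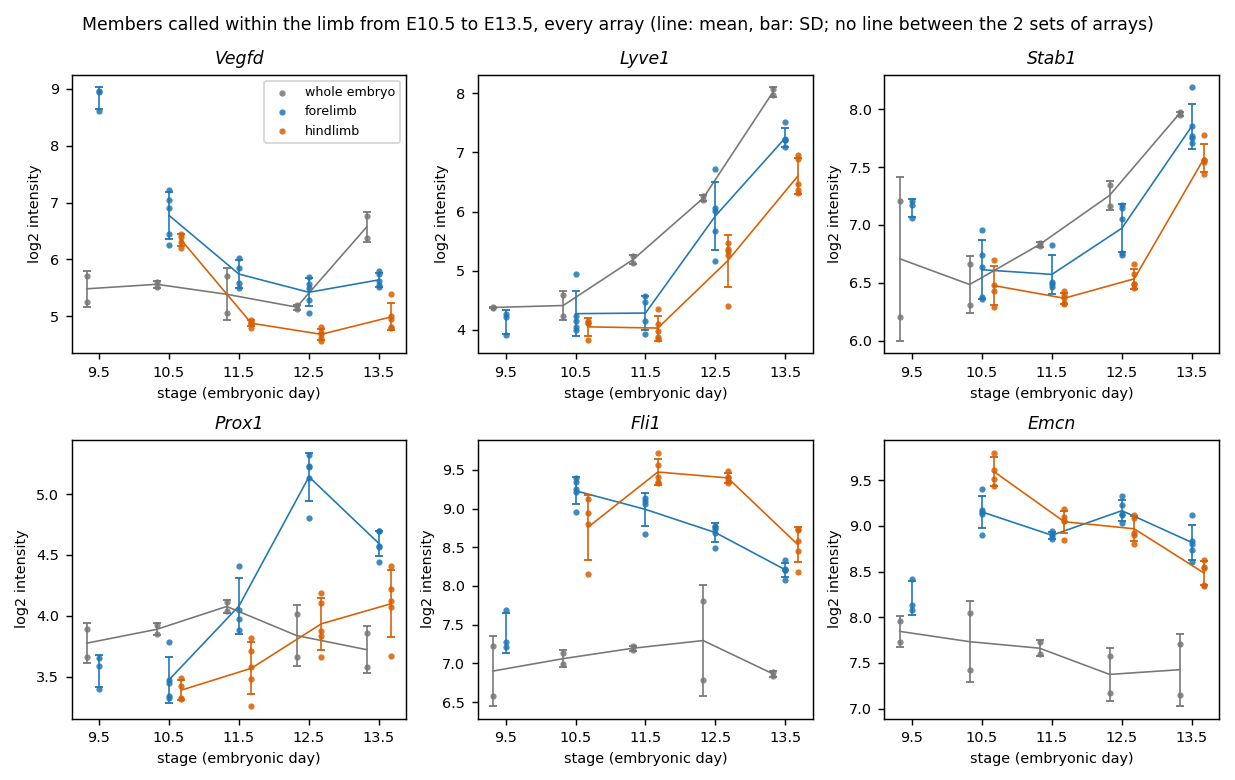
Every array is a point (log2 intensity against stage) for the 6 genes called between E10.5 and E13.5 in a limb, in whole embryo (grey), forelimb (blue) and hindlimb (orange), with group means joined, SD bars, and no line between the 2 sets of arrays. Vegfd falls from 6.77 at E10.5 to 5.42 at E12.5 in forelimb and from 6.34 to 4.68 in hindlimb, Lyve1 and Stab1 rise to E13.5, and Prox1 peaks in E12.5 forelimb at 5.14.

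Forelimb and hindlimb of the same stage were compared to find genes that differ with limb identity. Hindlimb development trails that of forelimb, so at the same stage a difference of limb and a difference of progress cannot be told apart. At E10.5, E11.5 and E13.5, 0 of the 37 genes were called by this limma rule (0.566%, 0.412% and 0.286% of all genes were). At E12.5 1 was, Prox1 (0.462% of all genes were higher in forelimb and 0.044% lower, 0.506% together). Of all genes 0.418%, 0.313% and 0.236% were called higher in forelimb at the other 3 stages and 0.148%, 0.0989% and 0.0495% lower. At the looser limit 2 genes were higher in forelimb and 4 lower at E10.5 (7.94% and 6.08% of all genes, 14% together). They were 3 and 1 at E11.5 (3.17% and 1.2%, 4.37% together), 9 and 1 at E12.5 (6.02% and 3.92%, 9.94% together) and 3 and 0 at E13.5 (3.19% and 3.27%, 6.46% together). The medians were -0.02, -0.05, 0.13 and 0.11 by stage. After quantile normalization the counts were 1 and 8, 2 and 2, 6 and 1, and 7 and 0. The 95% intervals of all 37 differences lay between -0.68 and 0.78 at E10.5 and between -0.62 and 1.04 at E13.5.

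Vegfd was higher in forelimb than in hindlimb at each of the 4 stages. At E11.5 it read 5.59, 6.02, 5.85 and 5.50 in forelimb and 4.89, 4.80, 4.94, 4.88 and 4.87 in hindlimb, and at E12.5 5.29, 5.56, 5.06, 5.69 and 5.50 against 4.69, 4.61, 4.72, 4.57 and 4.81. The arrays of the limbs overlapped at E10.5 and at no later stage. The differences were 0.43 ± 0.15, 0.86 ± 0.15, 0.74 ± 0.14 and 0.65 ± 0.14 from E10.5 to E13.5 (adjusted p = 0.0386, 7.58e-05, 0.000222 and 0.00144, limma), and the first was 0.34 after quantile normalization and did not pass (adjusted p = 0.0865).

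Prox1 was higher in forelimb from E11.5 on. At E12.5 hindlimb read 3.66, 3.84, 4.10, 3.88 and 4.19, all below the 5 forelimb arrays given above, and the difference was 1.21 ± 0.12 (adjusted p = 3.61e-10), with all hindlimb arrays in the range of the bacterial transcripts. It was 0.51 ± 0.12 at E11.5 and 0.49 ± 0.12 at E13.5 (adjusted p = 0.00727 and 0.00464), without overlap. Without the 2 arrays of conflicting labels the E12.5 difference was 1.19, and with both placed by their other labels it was 0.67 (adjusted p = 0.162). Lyve1, which like Prox1 marks lymphatic endothelium, was higher in forelimb by 0.76 ± 0.19 at E12.5 and 0.65 ± 0.19 at E13.5 (adjusted p = 0.00666 and 0.0285), with overlap at E12.5, and Stab1 by 0.44 ± 0.12 at E12.5 (adjusted p = 0.0141). At E12.5 macrophage genes were also higher in forelimb, 7 of 12 at the looser limit with a median of 0.40, and mural cell genes, 5 of 10 with a median of 0.38. Their part in these differences was not tested.

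Further differences between the limbs were smaller or changed sign with stage. Angpt1 was higher in forelimb by 0.49 ± 0.13 at E11.5 and 0.56 ± 0.13 at E12.5 (adjusted p = 0.019 and 0.00206), with no overlap, and the first did not pass after quantile normalization. Fli1 was higher in forelimb at E10.5 by 0.47 ± 0.15 (adjusted p = 0.0297) and lower at E12.5 (-0.71 ± 0.14, adjusted p = 0.000699), where forelimb read 8.76, 8.78, 8.48, 8.74 and 8.69 and hindlimb 9.40, 9.49, 9.41, 9.35 and 9.33. Cldn5 and Emcn were lower in E10.5 forelimb by 0.50 ± 0.08 and 0.44 ± 0.11 (adjusted p = 1.54e-05 and 0.00666), each without overlap, as were Vegfc and Ecscr by 0.26 and 0.22 (adjusted p = 0.00976 and 0.0449). At E12.5 Cldn5 was higher in forelimb by 0.28 ± 0.08 (adjusted p = 0.0134), as were Kdr, Icam2 and Tek by 0.30, 0.31 and 0.38 (adjusted p = 0.0285, 0.0216 and 0.0297), and of these Cldn5, Kdr and Tek did not pass after quantile normalization. Sox17 was lower in E11.5 forelimb by 0.38 ± 0.11 (adjusted p = 0.025).

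Because of the later progress of hindlimb, forelimb was also set against hindlimb of the next stage. In each of the 3 comparisons 1 gene was called higher in forelimb and 0 lower, against 0.242%, 0.192% and 0.676% of all genes higher and 0.747%, 0.0879% and 0.786% lower. Vegfd was that gene for E10.5 forelimb against E11.5 hindlimb (1.90 ± 0.14, limma, adjusted p = 2.8e-14) and for E11.5 against E12.5 (1.06 ± 0.15, adjusted p = 2.18e-06), without overlap, and for E12.5 against E13.5 it was 0.43 ± 0.14 (adjusted p = 0.00958) with overlap. Prox1 was that gene for E12.5 against E13.5 (1.04 ± 0.12, adjusted p = 1.12e-09), without overlap, whereas for E11.5 against E12.5 it was 0.15 ± 0.12 (adjusted p = 0.539).

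Lyve1 and Stab1 turned direction against the later hindlimb. In E12.5 forelimb both were above hindlimb of the same stage and below E13.5 hindlimb, at -0.67 ± 0.19 and -0.60 ± 0.12 (limma, adjusted p = 0.0038 and 6.42e-05). Angpt1 of E12.5 forelimb was 0.60 ± 0.13 above E13.5 hindlimb (adjusted p = 0.000108), but that of E11.5 did not pass against E12.5 hindlimb (0.12, adjusted p = 0.667). Fli1 passed in none of the 3 comparisons (-0.24, -0.41 and 0.15, adjusted p = 0.321, 0.105 and 0.413).

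**Figure D4:**
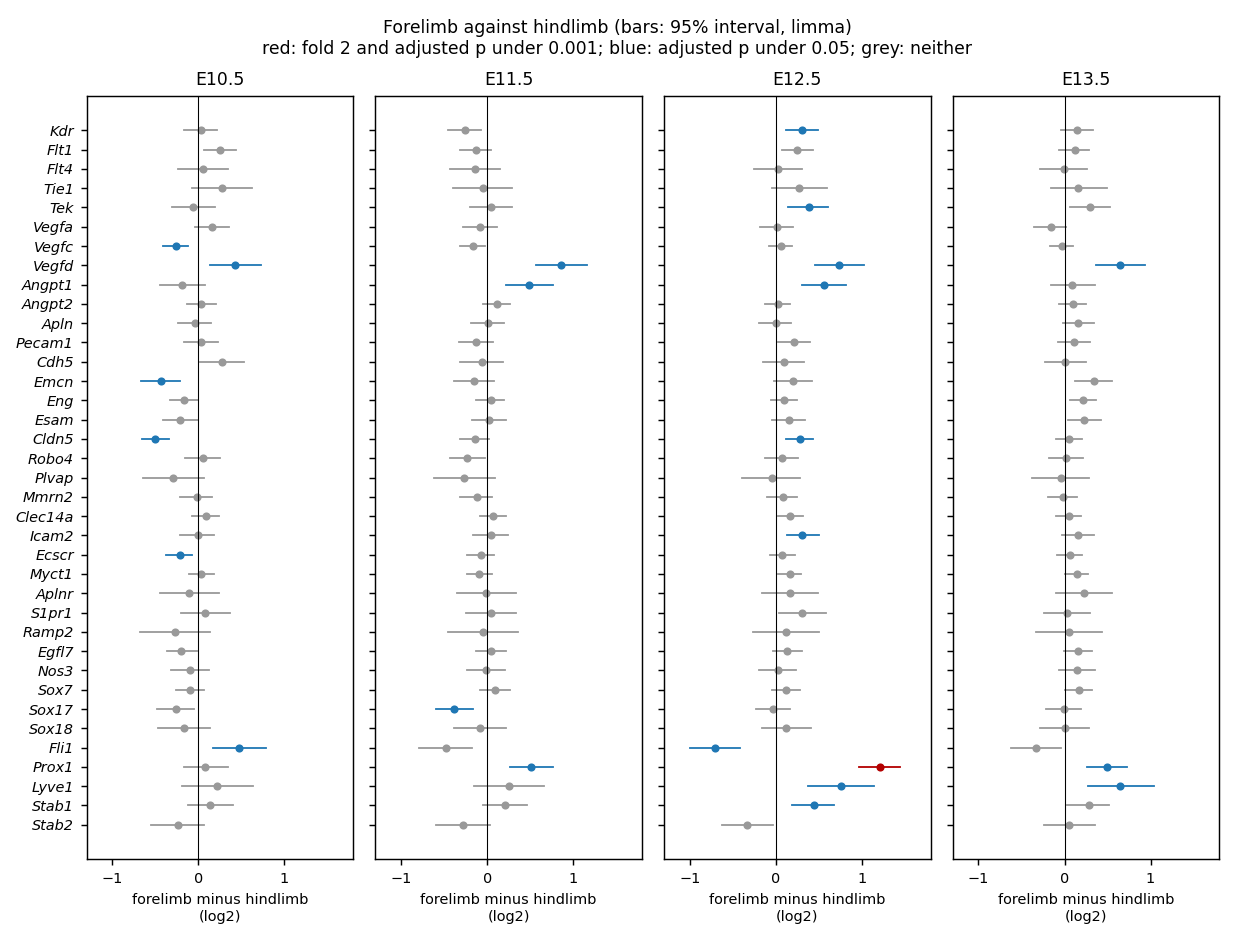
For each of the 37 genes and each stage the point is the forelimb minus hindlimb difference (log2) and the bar its 95% interval from limma; red marks a call, blue an adjusted p under 0.05 and grey neither. Most points lie near 0, Vegfd lies to the right at all 4 stages, and Prox1 at E12.5 is the 1 red point.

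The change from E10.5 to E13.5 was also compared between the limbs directly. By this test 0 of the 37 genes were called (0.291% of all genes with a higher change in forelimb and 0.627% with a lower one, 0.918% together). The looser limit was passed by 6 (12.9% of all genes), 5 with a higher change in forelimb (5.33%) and 1, Fli1, with a lower one (7.62%). The 5 were Emcn, Cldn5 and Eng, described above, Esam, a junction protein, at 0.44 ± 0.14, and Egfl7 at 0.35 ± 0.12 (limma, adjusted p = 0.0284 and 0.0409). The median difference over the 37 genes was 0.22.

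At E9.5 forelimb was compared with whole embryo to find genes enriched in the early bud, within 1 set of arrays. Inside that set the groups still differed, with Dap at 12.80 to 13.29 in forelimb and 11.74 and 11.61 in whole embryo replicates 1 and 2, and the Gapdh difference at 1.48 to 1.73 against 2.03 and 2.85. Of 6 heart genes all 6 were called lower in forelimb, and of 6 limb mesenchyme genes all 6 higher. The part of these in the differences was not tested. Of the 37 genes 2 were called up and 0 down (2.08% and 1.61% of all genes, 3.69% together), and 17 were higher and 1 lower at the looser limit (24.9% and 7.85%, 32.7% together), with a median of 0.37 against 0.08 over all genes. The 2 were Vegfd and Sox18. Vegfd read 8.62, 8.96 and 8.94 in forelimb and 5.71 and 5.26 in whole embryo, with no overlap, and this difference, 3.36 ± 0.20 (fold change 10.2, adjusted p = 1.81e-17, limma), was the largest among the 37 genes in this comparison. With these groups fitted alone it kept its size at an adjusted p of 0.00143.

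Sox18, a factor of early endothelial and lymphatic differentiation, read 9.05, 9.32 and 9.26 in forelimb and 8.84 and 7.24 in whole embryo, a difference of 1.17 ± 0.20 (adjusted p = 1.73e-05). It rested on whole embryo replicate 2, without which it was 0.37 (adjusted p = 0.131), and with these groups fitted alone its adjusted p was 0.225. The counts depend on that array too: without it 1 gene was called and without its partner 12. Others past the looser limit were Aplnr (0.93), Robo4 (0.70), Icam2 (0.69), Esam (0.66) and S1pr1 (0.62), and Angpt1 was the 1 lower gene (-0.70 ± 0.18, adjusted p = 0.00226). Pecam1, Tek and Tie1 did not pass (0.09, -0.22 and 0.41, adjusted p = 0.7, 0.365 and 0.188). After quantile normalization 11 genes were higher and 2 lower, with Kdr, Flt4, Cldn5, Egfl7, Plvap, Vegfc and Stab1 no longer past the limit.

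From E9.5 to E10.5 in forelimb, a comparison that crosses the sets of arrays, 4 genes met the limits for up-regulation and 1 for down-regulation (5.74% and 1.8% of all genes, 7.54% together), and 9 were higher and 13 lower at the looser limit (25.7% and 34.3%, 60% together), which became 7 and 18 after quantile normalization. Pecam1 read 5.48, 5.40 and 5.42 at E9.5 and 8.44, 8.38, 8.39, 8.53 and 8.46 at E10.5, a difference of 3.01 ± 0.11. Whole embryo read between 4.72 and 5.83 for Pecam1 on all 10 arrays, and the later limbs between 8.23 and 8.89 on all 38, so that its level followed the set of arrays as the Dap and Gapdh signals did. Their part in the difference was not tested. Fli1, Tie1 and Angpt1 were higher at E10.5 by 1.84, 1.14 and 1.02, the last 2 at 0.91 and 0.89 after quantile normalization and then under the fold limit, and Vegfd was lower by 2.07 ± 0.16 (adjusted p = 8.28e-15). Kdr and Egfl7 fell by 0.84 and 0.69 (adjusted p = 6.81e-09 and 3.09e-08), and Cldn5 and Sox18 did not pass (-0.13 and -0.05). Stage and array set cannot be told apart here, so these values do not show whether the endothelial genes moved together.

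Later limbs were compared with whole embryo of the same stage, again across the sets. Up-regulated and down-regulated genes numbered 5 and 0 at E10.5, 7 and 1 at E11.5, 5 and 0 at E12.5 and 4 and 4 at E13.5, against 13.3%, 15.3%, 12.9% and 13.8% of all genes called. Of all genes 9.94%, 11.7%, 7.7% and 5.71% were up-regulated and 3.34%, 3.69%, 5.25% and 8.13% down-regulated. Pecam1, Fli1 and Emcn were above whole embryo at all 4 stages, by 3.01 to 3.41, 1.51 to 2.04 and 1.22 to 1.69 (Emcn at E11.5 was 0.82 after quantile normalization), and Tie1 was at the first 3 (1.66, 1.52 and 1.25). Angpt1 was up-regulated at E12.5 and E13.5 (1.45 and 1.53), but its brighter probe set alone gave 0.43 and 0.65, under the fold limit. At E13.5 Stab2 (-1.81 ± 0.18), Ramp2 (-1.39 ± 0.23), Vegfd (-1.26 ± 0.17) and Lyve1 (-1.10 ± 0.23) were below whole embryo. The mean log2 of 8 liver genes, all 8 called lower in the limbs, was then 11.40 to 11.54 in whole embryo and 3.65 to 3.92 in the limbs, that of 6 heart genes (4 lower) 8.89 to 9.24 and 5.84 to 6.46, and that of the 12 macrophage genes (5 lower) 7.51 to 7.60 and 6.65 to 7.28. Limb mesenchyme genes were higher in the limbs (6 of 6 called, 5 of 6 at E12.5). The part of these tissues in the differences was not tested. At the looser limit, after quantile normalization, the counts of higher and lower genes changed from 20 and 4 to 16 and 9 at E10.5 (35.1% and 23.9% of all genes before, 59% together) and from 15 and 6 to 12 and 13 at E11.5 (38.2% and 20.9%, 59.1% together). They were 14 and 12 at E12.5 (29.2% and 31.4%, 60.6% together) and 10 and 13 at E13.5 (24.3% and 31.4%, 55.6% together), and Cldn5, Vegfc and Ecscr changed sign at E10.5. Without whole embryo E11.5 replicate 1, 5 genes were called at E11.5. The calls of Tie1 at E12.5, Emcn at E13.5 and Lyve1 at E13.5 each rest on the pair of whole-embryo arrays, at 0.99 for Tie1 without whole embryo E12.5 replicate 1 and 0.94 for Emcn without E13.5 replicate 2.

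Within whole embryo, all in 1 set of arrays, 9 genes were called up and 0 down from E9.5 to E13.5 (11.3% and 2.42% of all genes, 13.7% together), and 19 were higher and 5 lower at the looser limit (28.7% and 20.7%, 49.4% together). Lyve1 read 4.38 and 4.38 at E9.5 and 7.97 and 8.08 at E13.5, a rise of 3.65 ± 0.30 (adjusted p = 7.33e-14, limma). The others were Stab2 (1.51), Ramp2 (1.45), Robo4 (1.31), Stab1 (1.25), Aplnr (1.20), Clec14a (1.13), Vegfd (1.09) and S1pr1 (1.03). Over the same stages all 8 liver genes and 11 of the 12 macrophage genes were called up (medians 6.53 and 2.53), with mean log2 of 4.99 to 5.17 at E9.5 and 11.40 to 11.54 at E13.5 for liver and 4.94 to 4.96 and 7.51 to 7.60 for macrophages. Their part in the rises of Lyve1, Stab1 and Stab2 was not tested. Stab2 and Vegfd, which rose in whole embryo, were lower at E13.5 than at E10.5 in both limbs. The limb group means of Stab2 at both stages lay in the range of the bacterial transcripts. These counts rest on pairs of arrays, with 19 genes called without E9.5 replicate 1, 4 without E9.5 replicate 2 and 5 without E13.5 replicate 2. Fitted alone, these groups gave 0 calls.

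Embryos of the same group also differed, and here a part of the vessel genes moved together. The mean of a core of 13 endothelial genes (Pecam1, Cdh5, Tie1, Tek, Kdr, Emcn, Esam, Cldn5, Robo4, Mmrn2, Clec14a, Icam2 and Ecscr, each gene left out of its own mean) was correlated with each gene over the 38 later limb arrays, after subtracting group means. The arrays share their processing and each holds 1 embryo, so the r values are descriptions. Of the 37 genes 22 had an r of 0.4 or more and 9 an r under 0.2, with a median of 0.45, against a median of 0.06 and a 5th to 95th percentile of -0.34 to 0.50 over the 18181 genes outside the core. Of the 24 listed genes outside the core 12 reached 0.4, and the rest of the 22 belong to the core itself. Within the core Kdr (0.22), Clec14a (0.16) and Robo4 (0.07) did not reach it. Of the 37 genes 15 exceeded that 95th percentile. The share of all genes at 0.4 or more was not taken. Some genes outside the 37 also reached 0.4, such as the hypoxia-responsive genes Ndrg1 (0.65) and Egln1 (0.54) and the mural cell gene Tagln (0.55). Others of the same kinds, such as Pgk1 (-0.16) and Notch3 (0.04), did not. Among the 37, the highest values were as follows. Egfl7 (0.69), Sox18 (0.67) and Plvap (0.67), a protein of endothelial diaphragms, were highest. Stab1 was at 0.61 with the core and 0.08 with the mean of the macrophage genes. With the means of mural cell, red blood cell and limb mesenchyme genes Stab1 was at 0.50, -0.20 and -0.45. In the same order Lyve1 was at 0.34, 0.13, 0.21, 0.04 and -0.10. Which cells these signals came from was not tested. Fli1 (-0.22), Apln (-0.03), Prox1 (-0.02) and Vegfa (0.04) were lowest. The core mean had an r of 0.42 with the mean of mural cell genes, 0.07 with macrophage genes and -0.07 with red blood cell genes. With the mean of 6 limb mesenchyme genes Fli1 had an r of 0.58 and the core mean an r of -0.42. No range over all genes was taken for r with that mesenchyme mean.

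**Figure D5:**
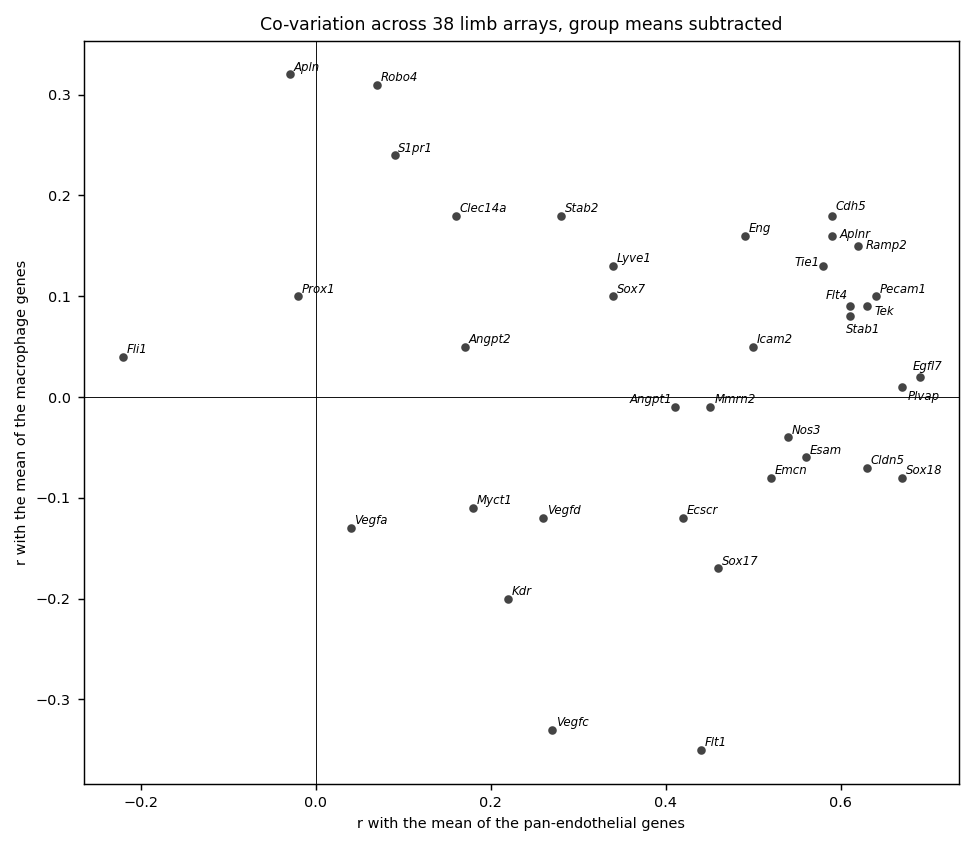
Each point is 1 of the 37 genes, placed by its r with the mean of the 13 core endothelial genes (horizontal) and with the mean of the 12 macrophage genes (vertical) over 38 limb arrays after subtraction of group means. The horizontal values of 22 genes are 0.4 or more, Apln is highest on the vertical axis at 0.32, and Fli1 lies farthest left at -0.22. Stab1 is at 0.61 on the horizontal and 0.08 on the vertical axis.

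Other genes of the pathway were read from lists of names. Of 17 further genes of the VEGF, angiopoietin and semaphorin pathways 5 rose past the limits and 0 fell from E10.5 to E13.5 in forelimb, and 5 and 0 in hindlimb (medians 0.32 and 0.53). Nrp1, a co-receptor for VEGF and semaphorins, had means of 8.32 ± 0.05, 8.04 ± 0.17, 8.27 ± 0.15 and 9.72 ± 0.06 (SD, n = 5, 4, 5 and 5) in forelimb and 8.18 ± 0.10, 8.30 ± 0.10, 8.30 ± 0.04 and 9.46 ± 0.06 (n = 4, 5, 5 and 5) in hindlimb, so its rise lay in the last step. Sema3c, a guidance ligand, rose by 2.27 and 2.44, and Thbs1, an inhibitor of vessel growth, by 2.11 and 2.42. Of 13 genes of arteries and veins 0 were up-regulated and 1 down-regulated in forelimb (Hey1, -1.15) and 1 and 0 in hindlimb (Notch1, 1.02). Of 13 hypoxia-responsive genes 1 was up-regulated in each limb, Ndrg1 in forelimb (1.04) and Ddit4 in hindlimb (1.38).

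Of 14 factors of early endothelium, 5 were up-regulated in forelimb and 4 in hindlimb, and 2 and 3 were down-regulated. The largest rises were those of Mef2c (3.68 and 3.02) and Klf4 (3.61 and 3.79), which cartilage, muscle and skin also use, and the falls included Tal1 (-1.91 and -1.65), which red blood cells use. Etv2, the ETS factor that starts the endothelial lineage, stood at 8.45 ± 0.22 (SD, n = 3) in E9.5 forelimb and 7.07 ± 0.07 (n = 2) in whole embryo, a difference of 1.38 ± 0.25 (adjusted p = 2.75e-05, limma). In later limbs it was at 5.35 ± 0.28 (n = 5) in E10.5 forelimb and 6.43 ± 0.64 (n = 4) in E10.5 hindlimb. The forelimb minus hindlimb difference there was -1.08 ± 0.18 (limma, adjusted p = 3.4e-05). The 6 groups from E11.5 on stood at 4.88 to 5.20, in the range of the bacterial transcripts. Between E9.5 and the later limbs, stage and array set cannot be told apart.

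Genes with several probe sets were not always read alike. Of the 19 genes with 2 or more probe sets, 14 had probe sets of opposite sign between E10.5 and E13.5 in at least 1 limb, and 5 (Clec14a, Eng, Lyve1, Prox1 and Vegfd) had the same sign throughout. Of the genes called within the limb from E10.5 on, Vegfd, Lyve1 and Prox1 are among these 5, Stab1 and Emcn have 1 probe set each, and Fli1 is among the 14.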

How the data were processed

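RNA of limbs and embryos from FVB mice was hybridised to 51 Affymetrix whole-genome mouse arrays, grouped by sample title into 14 groups of tissue and stage. The authors processed the scans with RMA (background correction, quantile normalization and probe set summary) and corrected a scan blemish on 1 array, whole embryo E12.5 replicate 2, and what they deposited are intensities that are linear, not logged. The version of RMA is not given in the sources used here. Because a log2 scale had been assumed in the test design, log2 was taken first. RMA quantile-normalizes the arrays together, so a shift common to most genes is removed.

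Of 45101 probe sets, 34958 have 1 gene symbol in the platform annotation, 932 have several and 9211 are unnamed here. Those with 1 symbol were averaged per gene (18194 genes). The comparisons were fitted in limma 3.58.1 (R 4.3.3, statmod 1.5.0), all groups in 1 fit with 37 residual degrees of freedom, with Benjamini-Hochberg adjustment over all genes and no filter on dim genes. The script was tested on simulated data. The number of arrays limits the precision. The alternatives were the probe set of highest mean, quantile normalization of gene values, own groups alone, a filter at a mean log2 of 5 (34 of the 37 genes pass, and 11611 genes in all), both treatments of the 2 arrays of conflicting labels, the looser limit, the replicate block, leaving out each array and, chosen after seeing the data but as the study's methods do, hindlimb of the next stage.

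The 37 genes and the other gene lists were chosen with earlier results of these data known. All 37 are accounted for, array values are given for those called in most comparisons or moving against the list's median, and at most 4 genes of the largest change are named from any other list. Angptl2 and Vash1, which belong to those lists, were not matched, and a further item of the lists is not reported here. Forelimb and hindlimb arrays of a stage may share embryos, and their replicate numbers did not settle a pairing. The 18 pairs of the same number had correlations of deviations from -0.11 to 0.35 (median 0.10), 8 over 0.1.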

Additional observations from a re-analysis of the deposited data

Results flagged for a closer look

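Of 304 sets of values, those of the 37 genes and of their mean in each group of 4 or 5 arrays, 12, all of single genes, had an array far from the others of its group, where chance gives about 1 in 20. In forelimb at E10.5 replicate 4 read 7.70 for Tek (the others 7.24 to 7.31) and 4.94 for Lyve1 (4.00 to 4.23). At E11.5 forelimb replicate 3 read 8.67 for Fli1 (9.06 to 9.13) and 6.83 for Stab1 (6.46 to 6.51). At E12.5 forelimb replicate 1 read high for 3 genes, 9.38 for Sox18 (9.13 to 9.15), 8.76 for Ramp2 (8.53 to 8.58) and 5.94 for Myct1 (5.75 to 5.80). At E13.5 forelimb replicate 4 read 6.91 for Mmrn2 (7.08 to 7.15).

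In hindlimb, E10.5 replicate 1 read 3.82 for Lyve1 (4.11 to 4.15). At E12.5 hindlimb replicate 1 read low for Lyve1, at 4.40 (5.27 to 5.46), and for Clec14a, at 6.76 (6.87 to 6.89), and replicate 4 read 9.22 for Plvap (9.39 to 9.43).

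The change from E10.5 to E13.5 differed between forelimb and hindlimb for 6 genes by the limma test of the difference at an adjusted p under 0.05. Forelimb minus hindlimb, the differences were 0.77 for Emcn, 0.55 for Cldn5, 0.44 for Esam, 0.38 for Eng, 0.35 for Egfl7 and -0.80 for Fli1 (adjusted p = 0.000547, 0.000499, 0.0284, 0.0172, 0.0409 and 0.00728).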

How the results depend on the processing

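Of 55 called differences of single genes, 28 kept their call under all alternatives that tested the gene, and 27 lost it under at least 1. Of the 55, 0 turned direction. Among the 28, Prox1 in forelimb between E10.5 and E13.5 and Stab2 over whole embryo at E13.5 were not tested under the dim filter. That filter leaves both genes out. At the looser limit the counts were 20 (forelimb) and 22 (hindlimb) between E10.5 and E13.5, 14, 10 and 17 in the 3 steps, 6, 4, 10 and 3 between the limbs from E10.5 on, 6 for the difference of limbs, 18 for forelimb over whole embryo at E9.5, 22 for forelimb E10.5 over E9.5, 24, 21, 26 and 23 for limbs over whole embryo, and 24 within whole embryo. The shares of all genes passing this limit are given with each comparison above, 58.3% (forelimb) and 56.9% (hindlimb) between E10.5 and E13.5. Quantile normalization gave 2 calls from E12.5 to E13.5, 1 at E9.5 and 3 from E9.5 to E10.5, and the probe set of highest mean 2 from E12.5 to E13.5. Counts within 1.5 times of the first also changed: the probe set of highest mean gave 6 in hindlimb between E10.5 and E13.5, 3 at E9.5, 4 from E9.5 to E10.5, 6 over whole embryo at E13.5 and 10 within it, and quantile normalization 4 in forelimb, 3 in hindlimb, 6 and 6 over whole embryo at E11.5 and E12.5 and 7 within it. Forelimb against hindlimb of the next stage, a comparison chosen after seeing the data, gave 1, 1 and 1 calls from E10.5 to E12.5. Groups fitted alone gave 0 calls at E9.5 and 0 within whole embryo. Between the limbs at E12.5 the dim filter, which leaves out Prox1, and the other labels each gave 0.

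Without 1 array each, the counts ran from 4 to 5 in forelimb, stayed at 4 in hindlimb and at 1 in each step, at 0, 0, 1 and 0 between the limbs and at 0 for their difference, and ran from 1 to 12 at E9.5, 4 to 6 from E9.5 to E10.5, 5 to 7, 5 to 8, 5 to 5 and 6 to 8 over whole embryo, and 4 to 19 within it. The 1 and 12 are without whole embryo E9.5 replicate 2 and replicate 1.

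With a replicate block, forelimb against hindlimb gave 0, 0, 1 and 0 calls and 0 for the difference of limbs, as without it. Prox1 at E12.5 was 1.21 (limma, adjusted p = 2.46e-07), and 5 of 19 forelimb arrays correlated best with their own number. Quantile normalization moved the median of all genes by over 0.1 within whole embryo, from 0 to -0.12, and for limbs over whole embryo at E13.5, from -0.07 to 0.06, and by less in the other comparisons. The cause of these changes was not tested.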
